A study of Mus musculus with 12 samples.

Results

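Hox genes of 3 mouse cell lines were examined on 12 single-color NimbleGen arrays, with 4 plates labelled AtT20, 4 labelled BV2 and 4 labelled N18, and 1 array per plate. The members were chosen by name alone, as every mouse gene whose symbol consists of Hox, a cluster letter from a to d and a paralog number. Of 39 such symbols in the reference, 38 had a target on the array, among 25128 genes and unnamed targets in all, and Hoxd8 was not analysed here. Each of the 38 genes had 1 target with 3 probes. AtT20 is a line of corticotrophs, the ACTH-secreting cells of the pituitary, BV2 is a microglial line and N18 is a neuroblastoma line. No cells were treated, and all 3 lines were grown in the same serum-containing medium. Each line is an immortalized line, so the 4 plates are separate cultures of 1 line and not separate animals, and p-values measure the spread between these cultures.

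Hox proteins are homeodomain transcription factors that give cells their position along the body axis. Their genes lie in 4 clusters, HoxA to HoxD, and the order of the genes in a cluster follows the order in which they are switched on from the head to the tail. Genes at the same place in different clusters are paralogs and carry the same number, with low numbers for the anterior and high numbers for the posterior end. Hox proteins bind DNA together with the Pbx, Meis and Pknox proteins, Polycomb complexes keep silent clusters shut, MLL complexes keep active ones open, and retinoic acid turns on the anterior genes. Hox genes are largely silent in the forebrain, whereas trunk tissues and blood cells use parts of the clusters.

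Levels are given in log2 units above 10 seminal proteins, genes of the seminal vesicle that these lines should not use. For each plate the probes of a gene were averaged on the linear scale, put back on the log2 scale, and lowered by the average of those 10 genes. A gene was called detected when its mean over the 4 plates lay more than 2 SD above these controls, with the SD taken over the 10 genes of each plate. That threshold was 0.37 ± 0.11 (SD, n = 4) on the plates labelled AtT20, 0.56 ± 0.15 in BV2 cells and 0.74 ± 0.10 in N18 cells. Probe values were packed more closely on the plates labelled AtT20, with an interquartile range per array of 0.38 to 0.78, than in BV2 cells, with 1.28 to 1.73, and in N18 cells, with 1.91 to 2.21. Of 9 microglial markers, 6 were detected in BV2 cells, where Csf1r, the receptor that microglia need to survive, had a level of 4.70 ± 0.39 (SD, n = 4), while Aif1, C1qa and C1qb were below the threshold. All 10 neuroblastoma markers were detected in N18 cells, where Stmn2, a microtubule regulator of neurons, had a level of 4.48 ± 0.22. On the plates labelled AtT20, only Cpe and Pitx1 of 7 corticotroph markers (28.6%) were detected, against 35.0% of all genes and targets. Pomc, the precursor of ACTH and the defining product of a corticotroph, had a level of 0.29 ± 0.26 there, and Tbx19, Pcsk1, Neurod1 and Crhr1 were also below the threshold. None of the 9 microglial markers were above the threshold on those plates, whereas 7 of the 10 neuroblastoma markers (70.0%) were. Marker calls were not specific to a line elsewhere either. Of the 7 corticotroph markers, Pomc and Tbx19 were detected in BV2 cells, and Tbx19, Pitx1, Crhr1 and Cpe in N18 cells. In BV2 cells 6 of the 10 neuroblastoma markers were detected, and in N18 cells the microglial markers Itgam and Tyrobp. Over all genes and targets 53.3% were detected in BV2 and 55.4% in N18 cells. Of 10 genes that all cells use, 9 were detected in each line, but Gapdh had a level of 3.01 ± 0.76 on the plates labelled AtT20, against 5.69 ± 0.34 in BV2 and 6.24 ± 0.20 in N18 cells, and Eef1a1 3.73 ± 0.38, against 6.09 ± 0.24 and 6.37 ± 0.09. The plates labelled AtT20 thus lacked the defining marker of the label. Whether their RNA came from AtT20 cells, or from mouse cells at all, was not tested, and every level, fold and count for them is that of the labelled plates only.

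**Figure D1:**
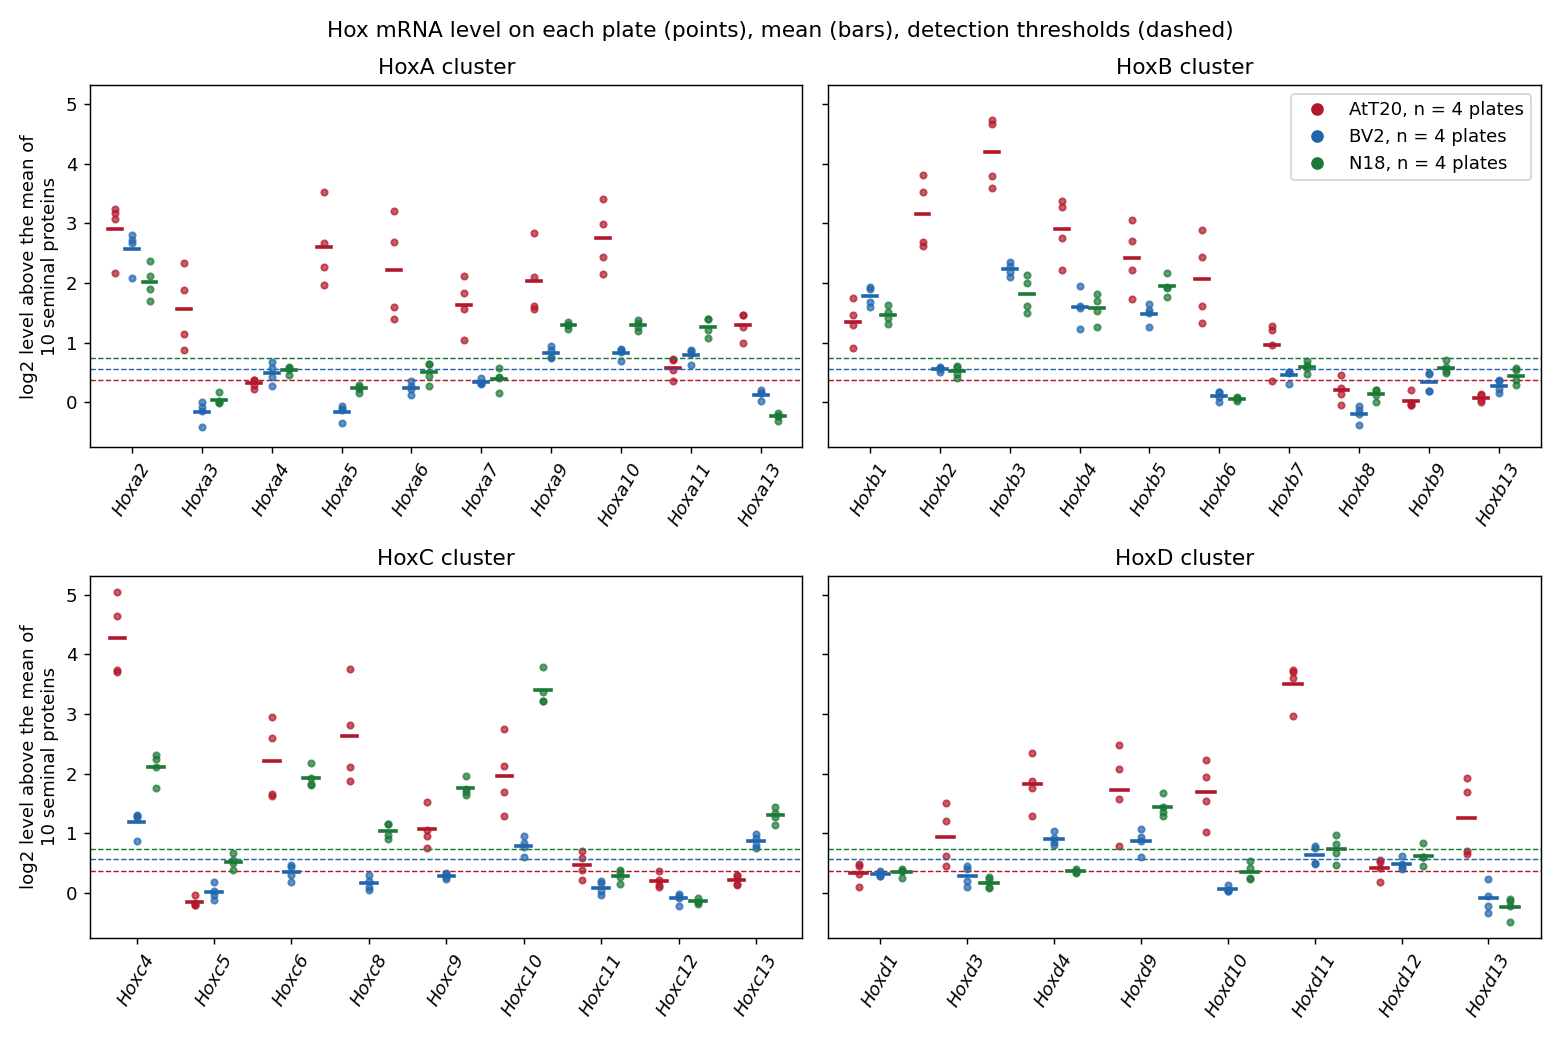
Level of 37 Hox genes on each plate, in 4 panels for the 4 clusters, as log2 units above the mean of the 10 seminal proteins on the vertical axis. Points are plates, bars are means of 4 plates, and the dashed lines are the thresholds of 0.37, 0.56 and 0.74 for the plates labelled AtT20, BV2 and N18. On the plates labelled AtT20, points stand above the threshold along most of each cluster, while in HoxC the N18 means are above it for 6 of 9 genes.

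Reference sequence upstream of 3 of these genes is shown for the groups described below, namely Hoxa2, detected in all 3 lines, Hoxa5, detected on the plates labelled AtT20 alone, and Hoxd11, detected there and in BV2 cells. The sequences of 300 bases around a transcript start are RefSeq's on GRCm38.p6, and 24 such windows were found for 22 Hox genes, Hoxd8 among them. Capitals mark TGATTNAT, a site type of Hox and Pbx dimers, and CCAAT, each on either strand, and the 2 motifs did not overlap in these windows.
Hoxa2, chr6:52164782-52165081, minus strand: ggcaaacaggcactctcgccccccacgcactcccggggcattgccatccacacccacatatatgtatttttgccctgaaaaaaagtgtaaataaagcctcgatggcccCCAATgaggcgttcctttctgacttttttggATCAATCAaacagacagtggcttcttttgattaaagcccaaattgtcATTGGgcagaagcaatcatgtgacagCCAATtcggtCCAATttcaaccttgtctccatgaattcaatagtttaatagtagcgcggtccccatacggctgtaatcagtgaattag
Hoxa5, chr6:52204538-52204837, minus strand: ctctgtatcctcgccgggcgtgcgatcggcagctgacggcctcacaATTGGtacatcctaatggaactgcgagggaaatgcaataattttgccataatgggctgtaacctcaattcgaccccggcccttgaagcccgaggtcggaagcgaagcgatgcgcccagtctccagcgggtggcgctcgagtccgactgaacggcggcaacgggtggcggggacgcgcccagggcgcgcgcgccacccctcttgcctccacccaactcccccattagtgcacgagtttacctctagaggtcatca
Hoxd11, chr2:74682073-74682372, plus strand: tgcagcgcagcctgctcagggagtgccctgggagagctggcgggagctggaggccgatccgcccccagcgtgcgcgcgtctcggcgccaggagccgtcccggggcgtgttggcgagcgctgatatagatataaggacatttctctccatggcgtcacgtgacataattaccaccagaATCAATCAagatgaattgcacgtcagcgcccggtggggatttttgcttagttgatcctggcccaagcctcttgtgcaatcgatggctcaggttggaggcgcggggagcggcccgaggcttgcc
TGATTNAT was present in the Hoxa2 and Hoxd11 windows, 2 of 24 Hox windows (8.33%), and in 3.22% of all 32851 windows. The other of the 2 Hoxd11 windows, which is not shown, held no match of either capitalized motif. CCAAT was present in 15 of the 24 Hox windows (62.5%) and in 37.4% of all windows. TATAAA was present in 4 of the 24 Hox windows (16.7%), those of Hoxa10, Hoxb8, Hoxd4 and Hoxd13, and in 13.6% of all windows. The Hox windows held between 4 and 45 CG dinucleotides with a median of 14.5, against a median of 7 over all windows. Of genes measured here, the 9 windows of genes detected on the plates labelled AtT20 alone had a median of 22, the 9 windows of genes detected in all 3 lines had a median of 12, and the 2 windows of genes detected in no line had a median of 21. These matches are counts of letters and say nothing of binding.

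Hox genes were detected most widely on the plates labelled AtT20, with 29 of 38 genes (76.3%) above the threshold, against 35.0% of all 25128 genes and targets. In BV2 cells 14 of 38 (36.8%) were detected, against 53.3% of all, and in N18 cells 15 of 38 (39.5%), against 55.4%. The plates labelled AtT20 thus had a Hox share above their background, and the BV2 and N18 plates had one below theirs. By cluster, the plates labelled AtT20 had 9 of 11 HoxA, 7 of 10 HoxB, 6 of 9 HoxC and 7 of 8 HoxD genes. The BV2 plates had 4, 4, 3 and 3 in the same order, and the N18 plates had 4, 4, 6 and 1. HoxC was therefore the cluster with the most detected genes in N18 cells and HoxD the one with the fewest. By position, the 8 anterior (paralogs 1 to 3), 14 central (4 to 8) and 16 posterior (9 to 13) genes gave 6, 11 and 12 detected genes on the plates labelled AtT20, 3, 4 and 7 in BV2 cells and 3, 5 and 7 in N18 cells. Under all 8 alternatives for detection, 22 genes kept their call on the plates labelled AtT20. In BV2 cells 5 did, Hoxa2, Hoxb1, Hoxb3, Hoxb4 and Hoxb5, and in N18 cells 9 did, the same 5 and Hoxc4, Hoxc6, Hoxc9 and Hoxc10. With olfactory receptor genes as the controls in place of the seminal proteins, 26, 5 and 9 Hox genes were detected in the same order of lines, and with a threshold of 3 SD, 27, 9 and 14.

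**Figure D2:**
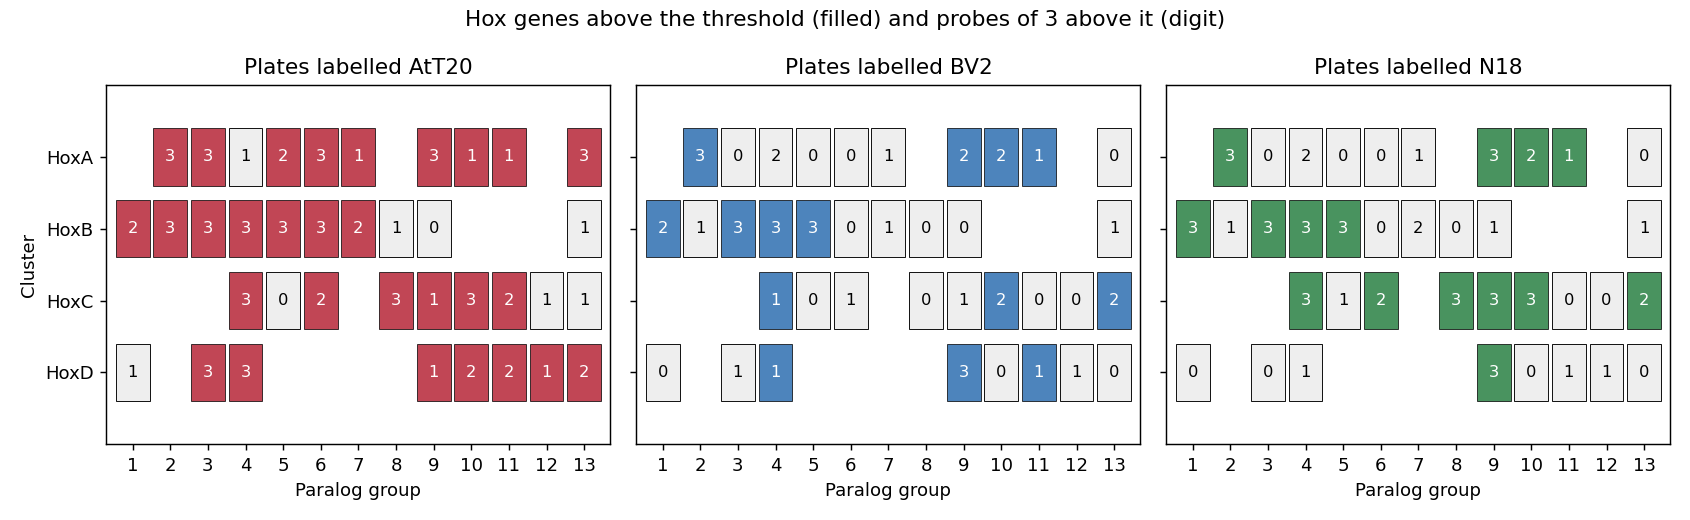
Detection map of 37 Hox genes, with paralog group on the horizontal axis, cluster on the vertical axis and 1 panel per line. Filled boxes are genes above the threshold (29, 14 and 15 genes), digits are the number of the 3 probes whose mean level was above it, and empty places have no gene shown here.

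Detected genes lay next to each other on the plates labelled AtT20. Among the measured genes, the 7 from Hoxb1 to Hoxb7, the 7 from Hoxa5 to Hoxa13 and the 7 from Hoxd3 to Hoxd13 formed unbroken runs, as did the 5 from Hoxc6 to Hoxc11. These runs were broken under some alternatives, since Hoxa7, Hoxa10, Hoxa11 and Hoxd9 were not detected with the median of probes, Hoxc9 not when 2 probes had to pass, and Hoxc11 and Hoxd12 not at 3 SD. The run from Hoxb1 to Hoxb7 held under all 8. The longest runs in N18 cells were 4 genes from Hoxc6 to Hoxc10, 3 from Hoxa9 to Hoxa11 and 3 from Hoxb3 to Hoxb5. The BV2 plates had the same pair of runs in HoxA and HoxB, and none longer than 2 in HoxC and HoxD. With olfactory receptor controls, Hoxa9, Hoxa10 and Hoxa11 were not detected in either line, nor was Hoxc8 in N18 cells. At 3 SD the same HoxA genes were not detected in BV2 cells, nor was Hoxc8 in N18 cells. The run from Hoxb3 to Hoxb5 held under all 8 in both lines.

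Genes detected in all 3 lines numbered 11, namely Hoxa2, Hoxa9, Hoxa10, Hoxa11, Hoxb1, Hoxb3, Hoxb4, Hoxb5, Hoxc4, Hoxc10 and Hoxd9. Hoxb3, an anterior gene of the hindbrain and of blood progenitors, had levels of 4.73, 4.66, 3.59 and 3.79 on plates 1 to 4 labelled AtT20, 2.29, 2.35, 2.18 and 2.09 in BV2 cells and 2.00, 1.61, 1.50 and 2.13 in N18 cells. Every plate labelled AtT20 was above every other plate, and the BV2 and N18 plates overlapped. Hoxa2, which patterns the hindbrain and the second pharyngeal arch, had levels of 3.17, 3.24, 2.16 and 3.07 on the plates labelled AtT20, 2.72, 2.08, 2.66 and 2.81 in BV2 cells and 2.11, 1.90, 1.69 and 2.37 in N18 cells. Its 3 groups of plates overlapped on this scale. Hoxb1, which gives the fourth segment of the hindbrain its identity, had levels of 1.29, 1.74, 0.91 and 1.45 on the plates labelled AtT20, 1.94, 1.60, 1.89 and 1.68 in BV2 cells and 1.41, 1.51, 1.32 and 1.64 in N18 cells, again with overlap. Hoxb4, which promotes the growth of blood stem cells, had levels of 3.27, 3.37, 2.22 and 2.75 on the plates labelled AtT20, 1.96, 1.22, 1.61 and 1.57 in BV2 cells and 1.70, 1.54, 1.26 and 1.82 in N18 cells, so that the last 2 groups lay within one range below the first. Hoxb5, a regulator of enteric neural crest, had levels of 3.06, 2.70, 1.73 and 2.22 on the plates labelled AtT20, 1.54, 1.26, 1.49 and 1.64 in BV2 cells and 1.91, 1.93, 1.77 and 2.17 in N18 cells, with the N18 plates above the BV2 plates and the plates labelled AtT20 spread across the N18 range.

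Hoxc4, the most anterior gene of HoxC, had levels of 5.04, 4.65, 3.70 and 3.74 on the plates labelled AtT20, 1.31, 0.86, 1.27 and 1.28 in BV2 cells and 2.25, 2.12, 1.75 and 2.31 in N18 cells. The 3 groups did not overlap, with the plates labelled AtT20 at the top and the BV2 plates at the bottom. Hoxc10, a posterior gene of the lumbar spinal cord and hindlimb, had levels of 2.75, 2.13, 1.29 and 1.69 on the plates labelled AtT20, 0.77, 0.61, 0.95 and 0.84 in BV2 cells and 3.21, 3.79, 3.21 and 3.36 in N18 cells, and here the N18 plates were the highest with no overlap. Hoxa9, which blood progenitors use and which is often high in leukaemia, had levels of 2.83, 2.09, 1.56 and 1.61 on the plates labelled AtT20, 0.94, 0.74, 0.87 and 0.76 in BV2 cells and 1.34, 1.30, 1.22 and 1.29 in N18 cells. Its groups were separate, in the order AtT20, N18 and BV2. Hoxa10, which acts in the uterus and in blood progenitors, had levels of 3.40, 2.99, 2.16 and 2.44 on the plates labelled AtT20, 0.87, 0.84, 0.69 and 0.90 in BV2 cells and 1.38, 1.32, 1.20 and 1.26 in N18 cells, in the same order. Hoxd9, a gene of the limb and lumbar cord, had levels of 2.48, 2.09, 0.79 and 1.57 on the plates labelled AtT20, 0.87, 0.60, 1.08 and 0.93 in BV2 cells and 1.44, 1.30, 1.36 and 1.67 in N18 cells, with the third plate labelled AtT20 below the N18 plates and within the BV2 range. Hoxa11, which patterns the forelimb zeugopod and the kidney, had levels of 0.72, 0.70, 0.35 and 0.55 on the plates labelled AtT20, 0.86, 0.62, 0.81 and 0.87 in BV2 cells and 1.40, 1.21, 1.07 and 1.39 in N18 cells, with the N18 plates above all others. In each line only 1 of its 3 probes was above the threshold, and not the same probe. It was the third on the plates labelled AtT20, at 1.14, and the second in BV2 and N18 cells, at 1.69 and 2.17. Hoxc4 in BV2 cells also had only 1 probe above the threshold.

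With each line's own threshold, a further 13 genes were detected on the plates labelled AtT20 alone, and no gene was detected in BV2 cells alone or in N18 cells alone. Hoxb2, a gene of the hindbrain, had levels of 3.82, 3.53, 2.62 and 2.69 on those plates, against 0.50 to 0.60 in BV2 cells and 0.40 to 0.61 in N18 cells. Hoxa5, needed for the lung and the cervical skeleton, had levels of 3.52, 2.66, 1.96 and 2.27, against -0.35 to -0.06 in BV2 and 0.16 to 0.29 in N18 cells. Every plate labelled AtT20 stood more than 1 unit above all plates of the other lines for both genes. Hoxa6, a gene of the thoracic skeleton, had levels of 3.20, 2.68, 1.40 and 1.60, against 0.13 to 0.35 in BV2 and 0.27 to 0.64 in N18 cells. Hoxb6, a gene of the trunk mesoderm, had levels of 2.88, 2.43, 1.33 and 1.62, against 0.00 to 0.17 in BV2 and 0.02 to 0.08 in N18 cells. Hoxa3, needed for the thymus and parathyroid, had levels of 2.33, 1.88, 0.88 and 1.14, against -0.42 to 0.00 in BV2 and -0.02 to 0.17 in N18 cells. For these 3 genes the plates labelled AtT20 stood above all others, and the BV2 and N18 plates overlapped. Hoxa7, also of the thoracic skeleton, had levels of 1.83, 2.11, 1.04 and 1.56, against 0.30 to 0.40 in BV2 and 0.15 to 0.57 in N18 cells. Hoxd10, which specifies lumbar motor neurons, had levels of 2.23, 1.95, 1.03 and 1.55, against 0.03 to 0.13 in BV2 and 0.23 to 0.53 in N18 cells. The plates labelled AtT20 were separate from the rest for both of these as well.

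The posterior genes Hoxa13 and Hoxd13, which pattern the digits and the urogenital tract, were detected on the plates labelled AtT20 at 1.46, 1.46, 0.99 and 1.27 and at 1.93, 1.70, 0.66 and 0.71. The BV2 plates had 0.01 to 0.20 for Hoxa13 and -0.34 to 0.24 for Hoxd13, and the N18 plates had -0.31 to -0.18 and -0.48 to -0.11. Neither gene had a plate of BV2 or N18 within the range of the plates labelled AtT20. Hoxd3, which shapes the first neck vertebrae, had levels of 1.50, 1.21, 0.45 and 0.62 on the plates labelled AtT20, against 0.11 to 0.45 in BV2 and 0.08 to 0.26 in N18 cells, and Hoxb7, a gene of the trunk, had 1.27, 1.22, 0.36 and 0.95, against 0.30 to 0.51 in BV2 and 0.48 to 0.70 in N18 cells. For Hoxd3 the third plate labelled AtT20 reached down to the highest BV2 plate, and for Hoxb7 it lay within the BV2 range and below the N18 plates. Hoxc11, a gene of the hindlimb, and Hoxd12, a gene of the digits, were near the threshold of 0.37. Hoxc11 had 0.38, 0.69, 0.21 and 0.58, against -0.04 to 0.19 in BV2 and 0.15 to 0.39 in N18 cells. Hoxd12 had 0.51, 0.55, 0.18 and 0.42, against 0.41 to 0.62 in BV2 and 0.45 to 0.83 in N18 cells. Its mean was lowest on the plates labelled AtT20, at 0.42 against 0.49 and 0.62, and both genes overlapped the N18 plates. With the same threshold for the 3 lines, Hoxc11 and Hoxd12 were not detected on the plates labelled AtT20. Hoxb7 was then detected in N18 cells as well, and Hoxb9 and Hoxd12 in N18 cells alone. The third plate labelled AtT20 was the lowest of the 4 for all 29 genes detected there.

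Genes shared by a pair of lines numbered 6. Hoxc6, Hoxc8 and Hoxc9 were detected on the plates labelled AtT20 and the N18 plates, Hoxd4 and Hoxd11 on the plates labelled AtT20 and the BV2 plates, and Hoxc13 on the BV2 and N18 plates. Hoxd11, which patterns the forearm and the kidney with Hoxa11, had levels of 3.60, 3.74, 2.97 and 3.71 on the plates labelled AtT20, 0.78, 0.51, 0.49 and 0.75 in BV2 cells and 0.81, 0.47, 0.66 and 0.98 in N18 cells. The BV2 and N18 plates overlapped, and the mean was 0.73 in N18 cells, under their threshold of 0.74, and 0.63 in BV2 cells, over their threshold of 0.56. Hoxd4, a gene of the hindbrain and neck, had levels of 2.35, 1.88, 1.29 and 1.76 on the plates labelled AtT20, 1.04, 0.93, 0.80 and 0.85 in BV2 cells and 0.34, 0.41, 0.37 and 0.34 in N18 cells, with no overlap. Hoxc13, a gene of hair and nails, had levels of 0.13, 0.30, 0.15 and 0.29 on the plates labelled AtT20, 0.93, 0.76, 0.98 and 0.80 in BV2 cells and 1.28, 1.35, 1.14 and 1.44 in N18 cells, with 3 separate groups and the plates labelled AtT20 at the bottom. The 8 genes detected in no line included Hoxa4, Hoxb8, Hoxb9, Hoxb13, Hoxc5, Hoxc12 and Hoxd1. Undetected genes had mean levels of -0.16 to 0.34 on the plates labelled AtT20, -0.20 to 0.56 in BV2 cells and -0.24 to 0.73 in N18 cells. Those just inside and just outside the threshold were Hoxd12 at 0.42 and Hoxd1 at 0.34 on the plates labelled AtT20, Hoxd11 at 0.63 and Hoxb2 at 0.56 in BV2 cells, and Hoxc8 at 1.05 and Hoxd11 at 0.73 in N18 cells.

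N18 cells were then compared with BV2 cells by limma after quantile normalization of the 8 arrays, with Benjamini-Hochberg adjustment over all 25128 genes and targets. A gene was called at an adjusted p under 0.05. In N18 cells 8 of 38 Hox genes were higher, against 25.8% of all genes and targets, and 10 were lower, against 36.1%. The median difference, N18 minus BV2, was -0.02 over the Hox genes and -0.08 over all genes and targets. The scaling decided this split, since 11 Hox genes were higher and 3 lower without normalization, and 19 were higher and 3 lower with levels relative to the seminal proteins. The median over all genes and targets was then 0.15 and 0.18.

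After quantile normalization, 6 of the 9 HoxC genes passed the test and all 6 were higher in N18 cells, and no other cluster had more than 1 higher gene. Hoxc10 differed by 2.07 (SE 0.11, adjusted p = 1.35e-09), which was the largest difference of the 38. Hoxc6, a gene of the thoracic region, had levels of 1.93, 2.17, 1.81 and 1.82 in N18 cells and 0.29, 0.43, 0.47 and 0.18 in BV2 cells, and 2.95, 2.60, 1.63 and 1.65 on the plates labelled AtT20. The N18 plates lay far above the BV2 plates, and the difference was 1.13 (SE 0.12, adjusted p = 1.58e-06). Hoxc9, which sets the identity of thoracic motor neurons, had levels of 1.64, 1.96, 1.73 and 1.70 in N18 cells, 0.32, 0.27, 0.33 and 0.23 in BV2 cells and 1.52, 1.05, 0.76 and 0.95 on the plates labelled AtT20, and differed by 1.10 (SE 0.09, adjusted p = 1.52e-07) with no overlap. Hoxc8, a gene of the brachial and thoracic cord, had levels of 1.15, 0.97, 0.90 and 1.16 in N18 cells, 0.20, 0.10, 0.05 and 0.30 in BV2 cells and 3.76, 2.82, 1.87 and 2.11 on the plates labelled AtT20. Its 3 groups were separate, and N18 exceeded BV2 by 0.65 (SE 0.08, adjusted p = 1.20e-05). With the BV2 value taken as the threshold, since these 3 genes were not detected there, Hoxc6 was at least 1.9-fold, Hoxc9 at least 1.7-fold and Hoxc8 at least 1.1-fold higher in N18 cells, as the smaller of the bounds after quantile normalization and relative to the seminal proteins. The lowest Hoxc6 difference over the alternatives was 0.84, under its bound of 0.93 in log2 units. Hoxc4 differed by 0.40 (SE 0.12, adjusted p = 0.00927), though its plates overlapped after quantile normalization. Hoxc5 was below the threshold in both lines, with 0.55, 0.67, 0.50 and 0.38 in N18 cells and 0.19, -0.03, -0.11 and 0.03 in BV2 cells, so no fold is given for its difference of 0.36 (SE 0.08, adjusted p = 8.90e-04). Hoxa5 and Hoxb8, undetected in both lines, were the other 2 higher genes, with differences of 0.31 and 0.25. Hoxc5, Hoxc6, Hoxc8, Hoxc9 and Hoxc10 kept their direction and their call in 15 of 15 alternatives of normalization, probe summary, arrays fitted together, replicate block and left-out plates. Higher genes were less confined to HoxC under the other scalings. Without normalization Hoxa5, Hoxa9, Hoxa10, Hoxa11 and Hoxd9 were also higher in N18 cells. Relative to the seminal proteins Hoxa3, Hoxa5, Hoxa6, Hoxa9, Hoxa10, Hoxa11, Hoxb5, Hoxb8, Hoxb9, Hoxd9 and Hoxd10 were.

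**Figure D3:**
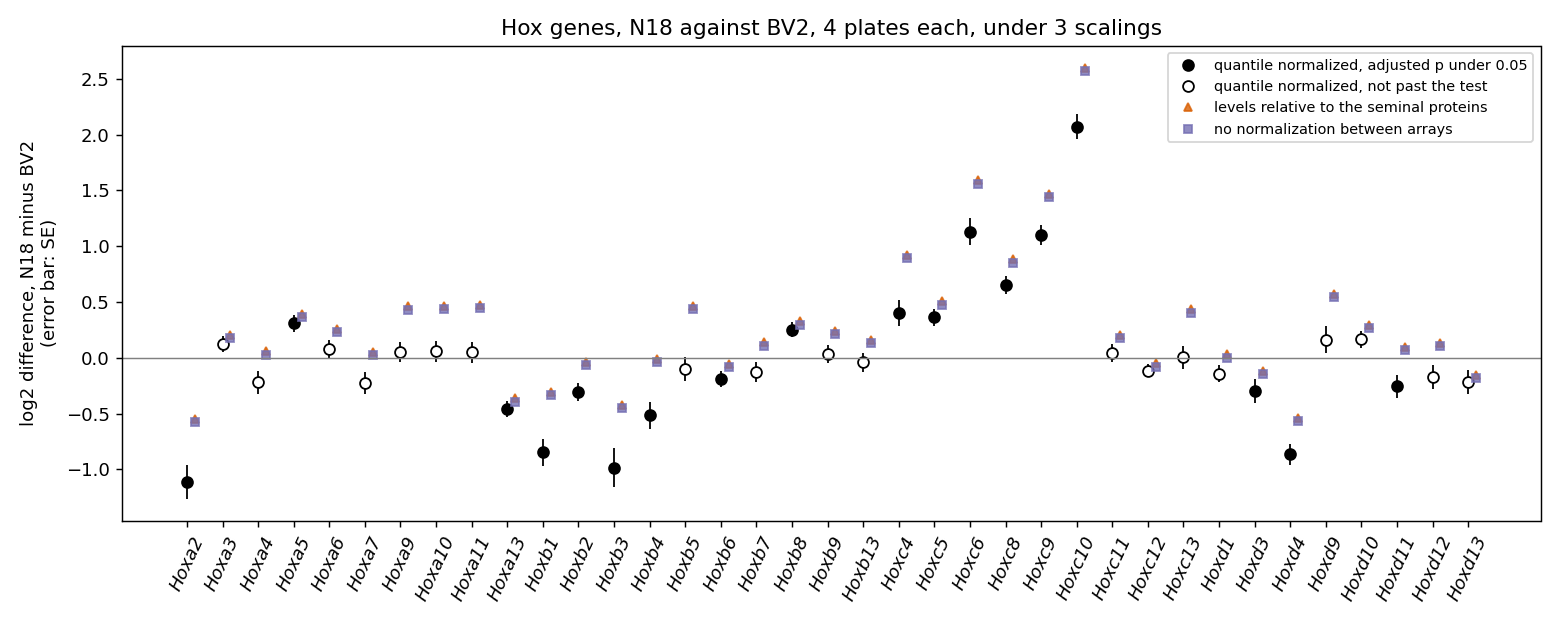
Log2 difference, N18 minus BV2, of 37 Hox genes in cluster order, with circles and SE bars for the quantile normalized values (filled where the adjusted p was under 0.05), triangles for levels relative to the seminal proteins and squares for no normalization. HoxC genes stand above 0 under all 3 scalings from Hoxc4 to Hoxc10, up to 2.07 after quantile normalization, and Hoxb1 to Hoxb4 lie nearer to 0 in the other 2 scalings.

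Of the 10 genes that were lower in N18 cells, 5 were of HoxB, 3 of HoxD and 2 of HoxA, and 5 of them were anterior genes. Hoxa2 differed by -1.12 (SE 0.15, adjusted p = 2.21e-05) and Hoxa13 by -0.46 (SE 0.07, adjusted p = 5.41e-05), and both kept their direction and call in 15 of 15 alternatives. Hoxa13 was below the threshold in both lines. Hoxb3 differed by -0.98 (SE 0.18, adjusted p = 2.69e-04) and Hoxb1 by -0.85 (SE 0.12, adjusted p = 4.25e-05). Neither Hoxb3 nor Hoxb1 passed the test without normalization or relative to the seminal proteins. Hoxd4 differed by -0.87 (SE 0.10, adjusted p = 2.91e-06), which makes it at least 1.1-fold higher in BV2 cells, but its median probe gave 0.04. Hoxb4 differed by -0.52 (SE 0.12, adjusted p = 0.00205) after quantile normalization, while its mean levels relative to the seminal proteins were 1.58 in N18 and 1.59 in BV2 cells. Hoxb2, Hoxd3, Hoxd11 and Hoxb6 differed by -0.31, -0.30, -0.26 and -0.19. Hoxb2 did not pass the test without normalization, relative to the seminal proteins, where it differed by -0.034, or with all 12 arrays. The call for Hoxb6 and for Hoxd11 was lost in 6 of the leave-one-plate-out fits and that for Hoxd3 in 4, and Hoxd11 turned to 0.07 without normalization and 0.10 relative to the seminal proteins. The other 20 Hox genes did not pass the test, with differences of -0.23 to 0.16. Relative to the seminal proteins, where the median over all genes and targets was 0.18, many of these genes passed the test as higher in N18 cells. They were Hoxa3, Hoxa6, Hoxa9, Hoxa10, Hoxa11, Hoxb5, Hoxb9, Hoxc11, Hoxc13, Hoxd9 and Hoxd10, and Hoxb5 differed by 0.46.

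The plates labelled AtT20 were higher than the BV2 plates for 34 of 38 Hox genes, against 43.6% of all genes and targets, and lower for 0, against 24.9%. By limma, 0 Hox genes were lower at an unadjusted p under 0.05 too. The median difference was 1.94 over the Hox genes and 0.18 over all. Hoxc4 differed by 4.00 (SE 0.16, adjusted p = 2.05e-10), Hoxd11 by 3.62 (SE 0.13, adjusted p = 1.11e-10) and Hoxb2 by 3.38 (SE 0.14, adjusted p = 2.77e-10). Hoxb2 was at least 6.0-fold, Hoxc8 at least 4.2-fold and Hoxa5 at least 4.1-fold higher than in BV2 cells, where the 3 genes were not detected. All 8 HoxD genes, 10 of 11 HoxA, 9 of 10 HoxB and 7 of 9 HoxC genes were higher. The 4 that did not pass included Hoxb9, Hoxc5 and Hoxc13. Relative to the seminal proteins Hoxc13 and Hoxb9 were lower on the plates labelled AtT20, with differences of -0.65 and -0.31. Relative to the seminal proteins the split was 27 higher and 2 lower, with a median of 0.93 over the Hox genes and -0.28 over all, and without normalization it was 38 and 0, with medians of 2.29 and 1.08. Of the 34 genes, 25 kept their direction and call in 15 of 15 alternatives.

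Against the N18 plates, 34 Hox genes were higher on the plates labelled AtT20, against 46.5% of all genes and targets, and 1, Hoxc5, was lower, against 26.7%. Both comparisons share the plates labelled AtT20. The median difference was 2.06 over the Hox genes and 0.23 over all. Hoxd11 differed by 3.87 (SE 0.13, adjusted p = 1.63e-10), Hoxb3 by 3.85 (SE 0.15, adjusted p = 4.19e-10) and Hoxb2 by 3.76 (SE 0.13, adjusted p = 2.27e-10). With probes averaged on the linear scale, Hoxd11 was at least 6.7-fold, Hoxb2 at least 5.3-fold and Hoxa5 at least 3.6-fold higher than in N18 cells, where they were not detected. The lowest Hoxd11 difference over the alternatives was 2.03, under its bound of 2.76 in log2 units. The direction of some genes in each cluster rested on the scaling. Among the HoxC genes, Hoxc10 differed by 0.48 after quantile normalization and by -1.43 relative to the seminal proteins, and Hoxc9 by 0.90 and -0.69, while Hoxc4, Hoxc8 and Hoxc12 were higher in 15 of 15 alternatives. Relative to the seminal proteins the split over the 38 genes was 20 higher and 9 lower, with a median of 0.61 over the Hox genes and -0.54 over all. Without normalization it was 36 and 0, with medians of 2.00 and 0.85. Of the 34 higher genes, 19 kept their direction and call in 15 of 15 alternatives, and Hoxc5, the lower one, did not.

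**Figure D4:**
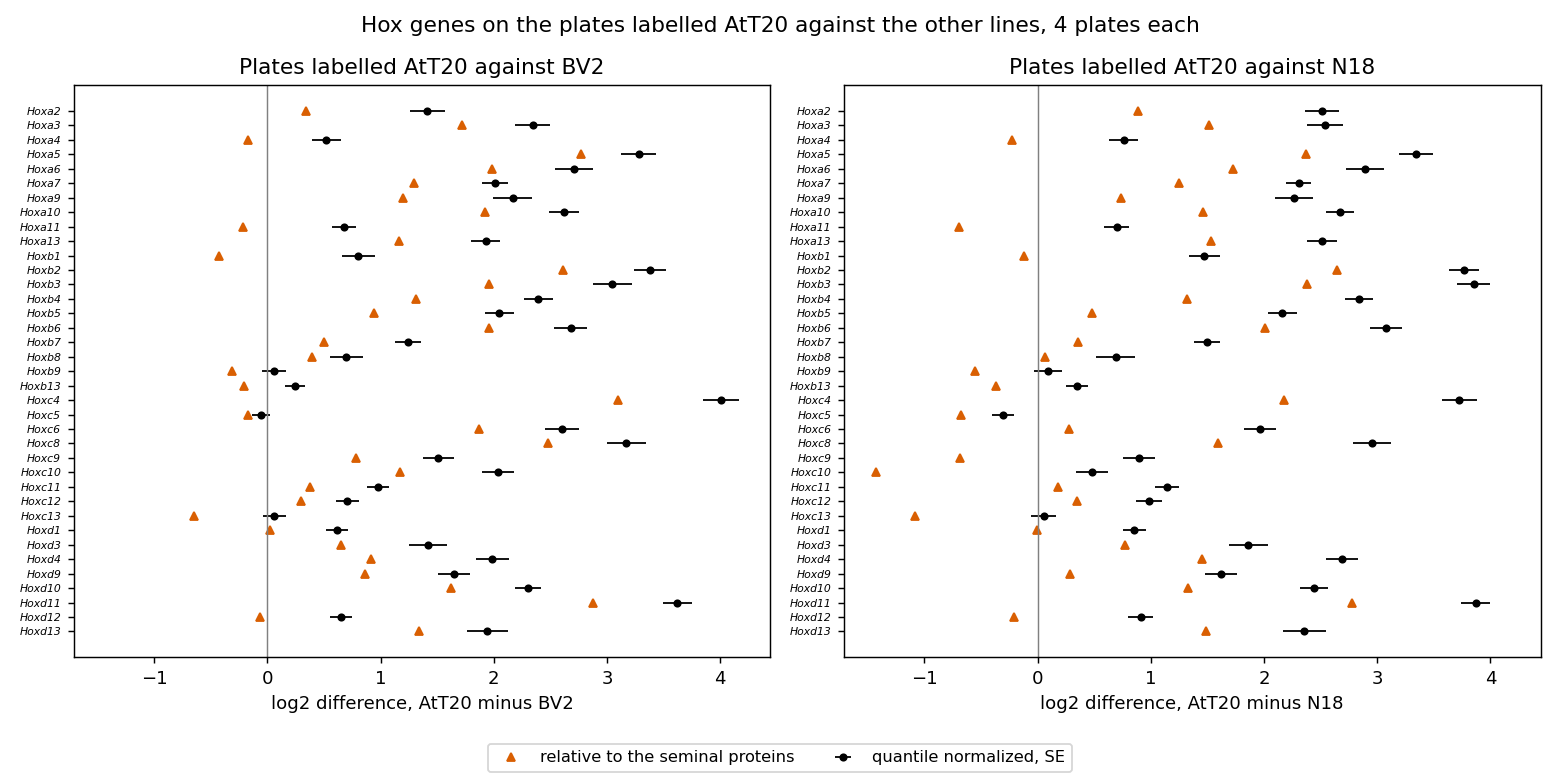
Log2 difference of 37 Hox genes, with the plates labelled AtT20 minus BV2 on the left and minus N18 on the right, as circles with SE bars after quantile normalization and triangles relative to the seminal proteins. Most circles lie to the right of 0, up to 4.00 for Hoxc4 against BV2, while for Hoxc10 against N18 the circle is at 0.48 and the triangle at -1.43.

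The 3 probes of a gene did not always rise together on the plates labelled AtT20. For Hoxa10 the probes had mean levels of 4.19, -0.08 and -0.29 there, against 1.43, 1.58 and 0.71 in N18 cells. For Hoxd9 they had 2.97, -0.16 and 0.03, against 1.84, 1.43 and 0.89. Both genes thus rested on 1 probe on the plates labelled AtT20 and on more in N18 cells. With the median of the probes, the plates labelled AtT20 were lower than the N18 plates, with differences of -0.75 for Hoxa10 and -0.54 for Hoxd9. For Hoxc10 the probes had 3.03, 0.38 and 1.12 on the plates labelled AtT20 and 3.16, 3.41 and 3.57 in N18 cells. For Hoxd11 they had 0.74, 0.27 and 4.96 on the plates labelled AtT20, -0.62, -0.34 and 1.80 in N18 cells and -0.31, 0.11 and 1.45 in BV2 cells. Most of its level thus came from 1 probe. The probes of Hoxc8 were alike, with 2.64, 2.56 and 2.71 on the plates labelled AtT20, 1.02, 0.98 and 1.12 in N18 cells and 0.22, 0.06 and 0.19 in BV2 cells. At least 2 probes were above the threshold for 23 of the 29 genes detected on the plates labelled AtT20, for 10 of 14 in BV2 cells and for 14 of 15 in N18 cells. The probe sequences were not analysed here, and whether paralogs share signal was not tested.

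Genes of the Hox pathway were read from lists given in the methods. Of the 9 TALE cofactors, the Pbx, Meis and Pknox proteins that bind DNA with Hox proteins, 6 were higher and 2 lower in N18 than in BV2 cells, with a median difference of 1.13 against -0.08 over all genes and targets. For this and the next lists, the shares over all genes and targets are 25.8% higher and 36.1% lower. Meis2 had levels of 3.37 ± 0.26 (SD, n = 4) in N18 cells and 0.76 ± 0.29 in BV2 cells, and differed by 2.11 (SE 0.12, adjusted p = 3.16e-09). Pbx3 had 3.10 ± 0.24 and 0.95 ± 0.09 and differed by 1.60 (SE 0.10, adjusted p = 5.59e-09). On the plates labelled AtT20, 8 of the 9 cofactors were higher than in BV2 and 5 higher than in N18 cells, and 0 were lower in either comparison, where 43.6% and 46.5% of all genes and targets were higher. Cofactors above the threshold numbered 8 (88.9%) on the plates labelled AtT20, 3 (33.3%) in BV2 cells and 6 (66.7%) in N18 cells, against 35.0%, 53.3% and 55.4% of all genes and targets.

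**Figure D5:**
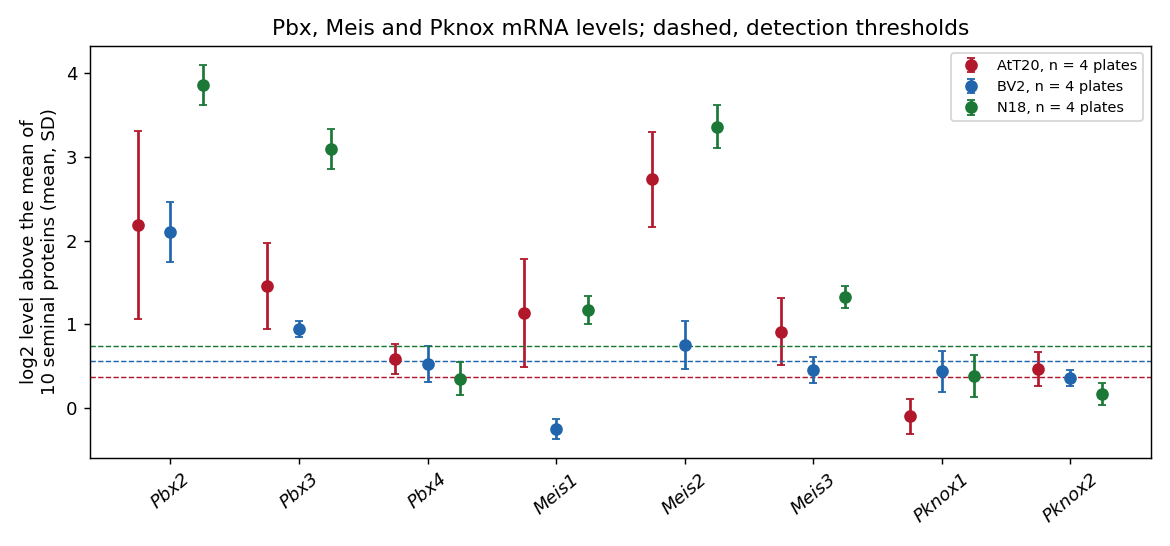
Mean level and SD over 4 plates of 8 Pbx, Meis and Pknox genes in each line, in log2 units above the mean of the 10 seminal proteins, with dashed thresholds. The N18 points for Pbx3 and Meis2, at 3.10 and 3.37, lie above the BV2 points, at 0.95 and 0.76.

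Of 30 genes of the Polycomb complexes, which silence Hox clusters, 19 were higher and 5 lower in N18 than in BV2 cells, against 25.8% and 36.1% of all genes and targets, with a median difference of 0.58. Phc1, Cbx7 and Cbx6, subunits of Polycomb repressive complex 1, differed by 2.00 (SE 0.10, adjusted p = 4.63e-10), 1.87 (SE 0.10, adjusted p = 1.90e-09) and 1.69 (SE 0.11, adjusted p = 1.03e-08). Of 12 genes of the MLL complexes and the H3K27 demethylases, which act against Polycomb, 3 were higher and 6 lower, with a median of -0.33. That split holds for the quantile normalized values only. As levels above the seminal proteins, the list had a higher median in N18 cells, 2.13 against 1.65 in BV2 cells. All genes and targets had medians of 0.93 and 0.64 on that scale. Kdm6a, a demethylase of H3K27, differed by -1.03 (SE 0.10, adjusted p = 9.24e-07), Psip1, which ties MLL to chromatin, by 0.95 (SE 0.11, adjusted p = 5.98e-06), and Men1, the gene of menin, by -0.94 (SE 0.10, adjusted p = 2.67e-06). Men1 did not pass the test without normalization or relative to the seminal proteins. Of the 30 Polycomb genes 26 were detected on the plates labelled AtT20, 22 in BV2 cells and 27 in N18 cells, against 35.0%, 53.3% and 55.4% of all genes and targets. Suz12, a core subunit of Polycomb repressive complex 2 singled out after its values were seen, was not detected on the plates labelled AtT20, at 0.04 ± 0.12, and had levels of 2.57 ± 0.41 in BV2 and 2.54 ± 0.23 in N18 cells. Other core subunits of that complex were among the 26 genes detected on the plates labelled AtT20.

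Of 15 genes of retinoid, Fgf and Gdf signaling, which induce Hox genes in the embryo, 3 were higher and 10 lower in N18 cells. The shares over all genes and targets were 25.8% and 36.1%, and the list had a median difference of -0.25. This split too holds for the quantile normalized values only. As levels above the seminal proteins, the median of the list was 1.15 in N18 and 1.02 in BV2 cells. Cyp26b1, which breaks down retinoic acid, was higher by 1.31 (SE 0.12, adjusted p = 4.77e-07). Fgf8, a secreted growth factor, differed by -0.69 (SE 0.07, adjusted p = 2.24e-06) while below the threshold in both lines. Of 18 genes next to the clusters, 7 (38.9%) were higher and 6 (33.3%) lower, the latter near the share of all genes and targets. Skap2, beside HoxA and an adaptor of blood cells, had levels of 3.92 ± 0.30 in BV2 cells and 0.61 ± 0.13, below the threshold, in N18 cells, and differed by -3.72 (SE 0.10, adjusted p = 7.54e-13). Smug1, a DNA repair glycosylase beside HoxC, differed by 1.45 (SE 0.10, adjusted p = 2.56e-08), and Hnrnpa3, an RNA-binding protein gene beside HoxD, by 1.12 (SE 0.09, adjusted p = 8.51e-08). Of 6 Cdx and ParaHox genes, 2 were higher and 2 lower. Gsx2 and Cdx4 were below the threshold in both lines and differed by -0.62 and -0.50, and Pdx1, detected in N18 cells at 0.96 ± 0.11, differed by 0.30 (SE 0.09, adjusted p = 0.0135), with overlapping plates and no call with all 12 arrays.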

How the data were processed

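Each array gave 1 value for each of 72000 probes. The deposited values are log2 Cy3 intensities, which the authors extracted with NimbleScan and put on a log2 scale; no normalization between arrays was found in them. The array was designed on MM8. Targets were named by matching transcript accessions to RefSeq symbols (17780 of 25631, 69.4%), and a gene with several targets was given their mean. Members, lists and comparisons were chosen with earlier results of these data known.

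Detection used 2 SD of 10 seminal proteins. For each pair of lines the 8 arrays were quantile normalized and fitted by lmFit and eBayes with an intensity trend (limma 3.58.1, R 4.3.3), with Benjamini-Hochberg adjustment over 25128 genes and targets. Both steps were tested on simulated data. Alternatives were 8 for detection and 9 for each pair, beside leaving out each plate.

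Some genes are not reported here or drawn, though counts include them. Named are the other matched Hox genes, with values by plate for those detected in a line or called in N18 against BV2 where their results turn on them and ranges otherwise, up to 3 called members of each related list, and markers. The lists hold TALE cofactors, Cdx and ParaHox genes, cluster neighbours, Polycomb and MLL complexes, Hox inducers, markers of corticotrophs, microglia and neuroblastoma, and 10 genes of all cells, of which 9 were detected in each line. Slides were not known, so slide and line cannot be told apart. Depth does not apply to arrays; 4 per line limit the precision. Python 3.11.15 (pandas 2.3.3, numpy 2.4.6, matplotlib 3.10.9) was used for tables and plots.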

Additional observations from a re-analysis of the deposited data

Results flagged for a closer look

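Over 114 groups of 4 plates, formed by 38 Hox genes in 3 lines, 4 had a plate far from the other 3 by Dixon's test, where chance gives about 1 in 20 groups. Hoxa2 was 2.16 on the third plate labelled AtT20, against 3.07 to 3.24 on the others. Hoxb9 was 0.21 on the fourth plate labelled AtT20, against -0.06 to -0.02. Hoxb7 was 0.30 on the third BV2 plate, against 0.49 to 0.51, and Hoxc4 was 0.86 on the second BV2 plate, against 1.27 to 1.31.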

How the results depend on the processing

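Detected Hox genes on the plates labelled AtT20, BV2 and N18 numbered 29 to 31, 14 to 17 and 15 to 16 when a plate was left out. BV2 fell to 5 and N18 to 9 with olfactory receptor controls, and BV2 to 9 at 3 SD. For N18 against BV2, leaving out a plate gave 8 to 9 higher and 7 to 12 lower Hox genes. Relative to the seminal proteins 19 were higher and 3 lower, without normalization 3 were lower, with all 12 arrays 5 were higher and 6 lower, among genes above the threshold 5 and 6, and at a difference of at least 1, 3 and 1. Against BV2, the plates labelled AtT20 had 33 to 35 higher and 0 lower when a plate was left out, and 2 lower relative to the seminal proteins and 2 with the median of probes. Against N18 they had 34 to 35 higher and 1 to 1 lower when a plate was left out, 20 higher and 9 lower relative to the seminal proteins, 3 lower with the median of probes, and 0 lower without normalization, among genes above the threshold and at a difference of at least 1.

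Differences changed sign for N18 minus BV2 in Hoxb4 (0.0064), Hoxd4 (0.037) and Hoxb9 (-0.25) with the median of probes, in Hoxd11 without normalization (0.068) and in Hoxd11 (0.10) and Hoxb5 (0.46) relative to the seminal proteins. For AtT20 minus BV2 they did so relative to the seminal proteins in Hoxa4 (-0.17), Hoxa11 (-0.21), Hoxb1 (-0.43), Hoxb9 (-0.31), Hoxb13 (-0.20), Hoxc13 (-0.65) and Hoxd12 (-0.068), with the median of probes in Hoxa4 (-0.071), Hoxa10 (-0.45), Hoxb9 (-0.36), Hoxd1 (-0.034) and Hoxd9 (-0.31), and without normalization in Hoxc5 (1.19). For AtT20 minus N18 they did so relative to the seminal proteins in Hoxa4 (-0.23), Hoxa11 (-0.69), Hoxb1 (-0.12), Hoxb9 (-0.56), Hoxb13 (-0.37), Hoxc9 (-0.69), Hoxc10 (-1.43), Hoxc13 (-1.08), Hoxd1 (-0.0077) and Hoxd12 (-0.20), with the median of probes in Hoxa4 (-0.0034), Hoxa10 (-0.75), Hoxc9 (-0.052), Hoxc10 (-0.33) and Hoxd9 (-0.54), with the mean of log2 probes in Hoxc10 (-0.033), and without normalization in Hoxc5 (0.71) and Hoxc10 (-0.038). The cause was not tested.

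Over all genes and targets, N18 against BV2 gave 6492 higher and 9062 lower, against 8568 and 2662 without normalization, 10519 and 3764 relative to the seminal proteins, 4775 and 5495 with all 12 arrays, 5361 and 5852 among genes above the threshold and 1787 and 1365 at a difference of at least 1. Over all genes and targets, AtT20 against BV2 gave 10958 higher and 6248 lower, against 18622 and 2861 without normalization, 4247 and 12449 relative to the seminal proteins, 6132 and 5832 among genes above the threshold and 2987 and 2643 at a difference of at least 1. Over all genes and targets, AtT20 against N18 gave 11692 higher and 6712 lower, against 4130 and 15255 relative to the seminal proteins, 6283 and 6416 among genes above the threshold and 4229 and 3141 at a difference of at least 1. With the replicate block the counts of Hox genes were 8 higher and 10 lower for N18 against BV2, 34 and 0 for the plates labelled AtT20 against BV2, and 34 and 1 against N18. The 12 correlations between same-numbered plates ran from -0.26 to 0.29, and 3 plates correlated best with their own number. With 4 plates per line these values cannot tell whether a number marks a shared day or slide. No background subtraction was found in the deposited values, and Hoxc11 and Hoxd12 lay within 1 SD of the threshold on the plates labelled AtT20. The 4 plates of a line are cultures of 1 line, and slides were not known.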
